A study of Peromyscus californicus with 17 samples.

Results

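The genes described here are the 8 water and ion transport genes Aqp1, Aqp3, Aqp4, Scnn1a, Scnn1b, Scnn1g, Cftr and Atp1b1 in the lung of the California mouse P. californicus, a monogamous rodent. They were picked by gene symbol, with no measured value in the rule but with earlier results of these data known, and they are 8 of the 27786 genes in the deposited table. RNA was sequenced from the lungs of 17 males with 1 library per animal. The 6 bonded animals (B1 to B6) had lived with a mate for 4 months. The 6 bond-disrupted animals (BD1 to BD6) had also been paired for 4 months and were then taken out of the mating cage 7 days before the lung was collected. The 5 virgins, V2 to V6, had never been paired, matched the others in age and lived in group cages. All came from a genetically diverse stock, and per the paper animals with the same number are siblings, except that V3 and V4 are cousins of the others. No drug, tumor or engineered allele is part of these groups. The question was whether the bonding history of the animal goes with a difference in these transcripts.

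The alveolar epithelium keeps only a thin film of liquid on its surface, across which gas is exchanged. Sodium enters the alveolar cells through the epithelial sodium channel ENaC, leaves on the other side through the Na,K-ATPase, and water follows, in part through aquaporins. Chloride moves in either direction through CFTR and other channels, and glucocorticoids and the kinase SGK1 are known to raise sodium uptake in this tissue.

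The values used are FPKM, the fragments per kilobase of gene scaled to the size of the library. In the deposited table the value of a gene in column 1 had been divided by the length of the gene 1 row above, and the value in column 17 by that of the gene 17 rows above. This was worked out from the values and is not stated by the authors. Library depths and gene lengths were therefore sought that turn the values into whole reads, and each value was then divided by the length of its own gene. Of 340121 values that could be checked, 98.6% lay within 1% of a read of a whole number. Lengths were chosen to make these values whole, so this share describes the fit and is no independent check. Depths, in units of 1000000 reads, were 30.8 to 68.2 and are known up to a common factor of 2. Over the 13508 genes whose reads averaged 100 or more, the median SD of log2(FPKM + 1) across animals was 1.36 as deposited and 0.187 with own lengths. Markers of lung epithelium were abundant in all libraries (summed type 2 alveolar markers 14757 to 32148 FPKM), and all 3 kidney markers stayed under 0.5 FPKM.

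For the 8 genes the step mattered. As deposited, Aqp3 ran from 0.754 to 120.3 FPKM, a 160-fold range between animals, and with its own length from 1.29 to 11.1 FPKM, an 8.60-fold range. Cftr spanned 295-fold as deposited and 5.51-fold with its own length. For Atp1b1 the range went from 68.9-fold to 1.48-fold. The same held for all of the other genes, whose ranges were 8.47-fold to 92.2-fold as deposited and 1.85-fold to 7.24-fold afterwards. The reads behind single values numbered 108 to 34457. The fewest reads were those of Aqp3 in BD2, for which counting alone gives an error of 9.62%, or 13.6% if the true reads are fewer by the factor of 2.

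**Figure D1:**
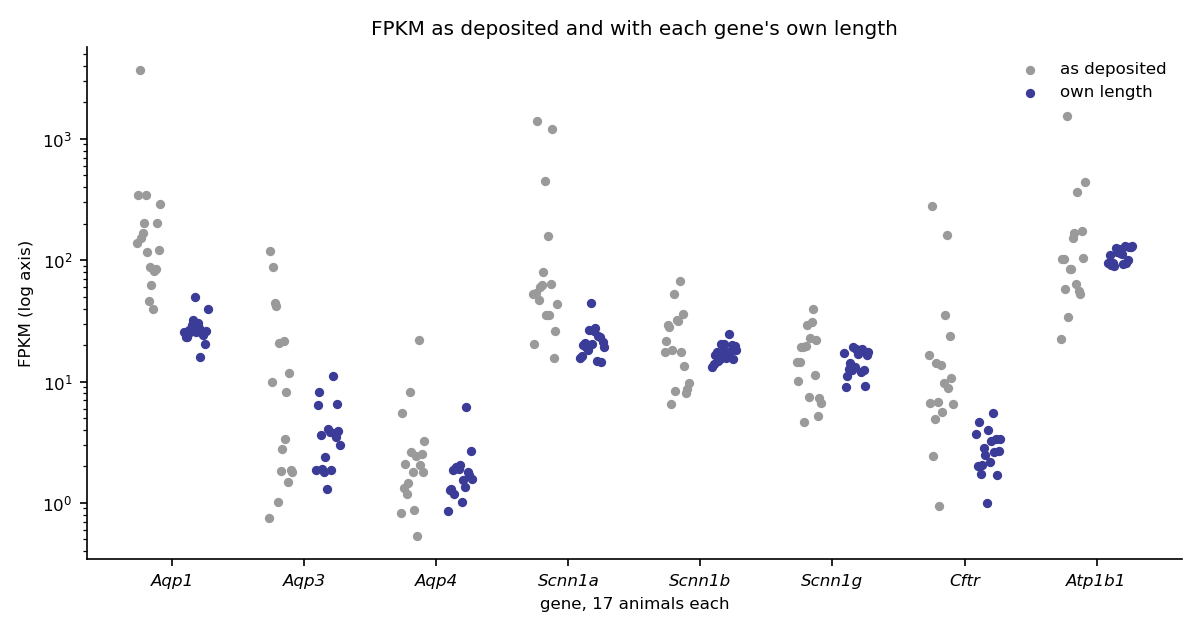
FPKM of the 8 genes on a log axis, with a point for each of the 17 animals, as deposited (grey) and after division by the length of the gene itself (blue). The deposited Aqp1 values reach 3676 FPKM in a bonded animal, while with the own length all Aqp1 values lie between 16.0 and 49.9 FPKM.

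The 8 genes covered a wide range of levels, and their order was nearly the same in all groups. Atp1b1 had the highest mean over the 17 animals (111 ± 15.6 FPKM, SD), followed by Aqp1 (27.8 ± 7.59), Scnn1a (21.9 ± 7.08), Scnn1b (17.6 ± 2.82) and Scnn1g (14.7 ± 3.42). Aqp3 (4.08 ± 2.64), Cftr (2.89 ± 1.14) and Aqp4 (1.89 ± 1.19) were low. Atp1b1 exceeded Aqp1, Aqp1 exceeded Scnn1a and Scnn1g exceeded Aqp3 in 17 of 17 animals. The other neighbours in the order changed places between animals. Scnn1a exceeded Scnn1b in 15 animals, Scnn1b exceeded Scnn1g in 13, Aqp3 exceeded Cftr in 11 and Cftr exceeded Aqp4 in 13. Bonded and bond-disrupted animals had the same order of group means, and in virgins the mean of Aqp4 stood just above that of Cftr (2.79 and 2.74 FPKM). The virgin medians had the reverse order (1.81 and 2.68 FPKM), and Cftr exceeded Aqp4 in 3 of the 5 virgins. These levels are per length of the annotated gene, which for Aqp1 was solved as 15671 bases against 1900 for Aqp3, so a long annotated length lowers the level given for Aqp1. An error in a solved own length would move all values of that gene by 1 factor. An error in the length that had divided a value would move that gene in 1 animal only. Such lengths were examined by the reads of all genes they had divided, the gene in question included. The measure was the median deviation of these reads from their usual level. This deviation was within 0.1 on the log2 scale for 113 of the 136 values of the 8 genes and within 0.2 for 132. The 4 beyond were -0.44 for Aqp4 in B2, 0.26 for Aqp4 in BD1, 0.27 for Aqp1 in BD1 and -0.25 for Scnn1a in BD6. Lengths had been chosen in part for agreement with these levels, and those far off were dropped. Small deviations were thus partly built in and do not vouch for single values.

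**Figure D2:**
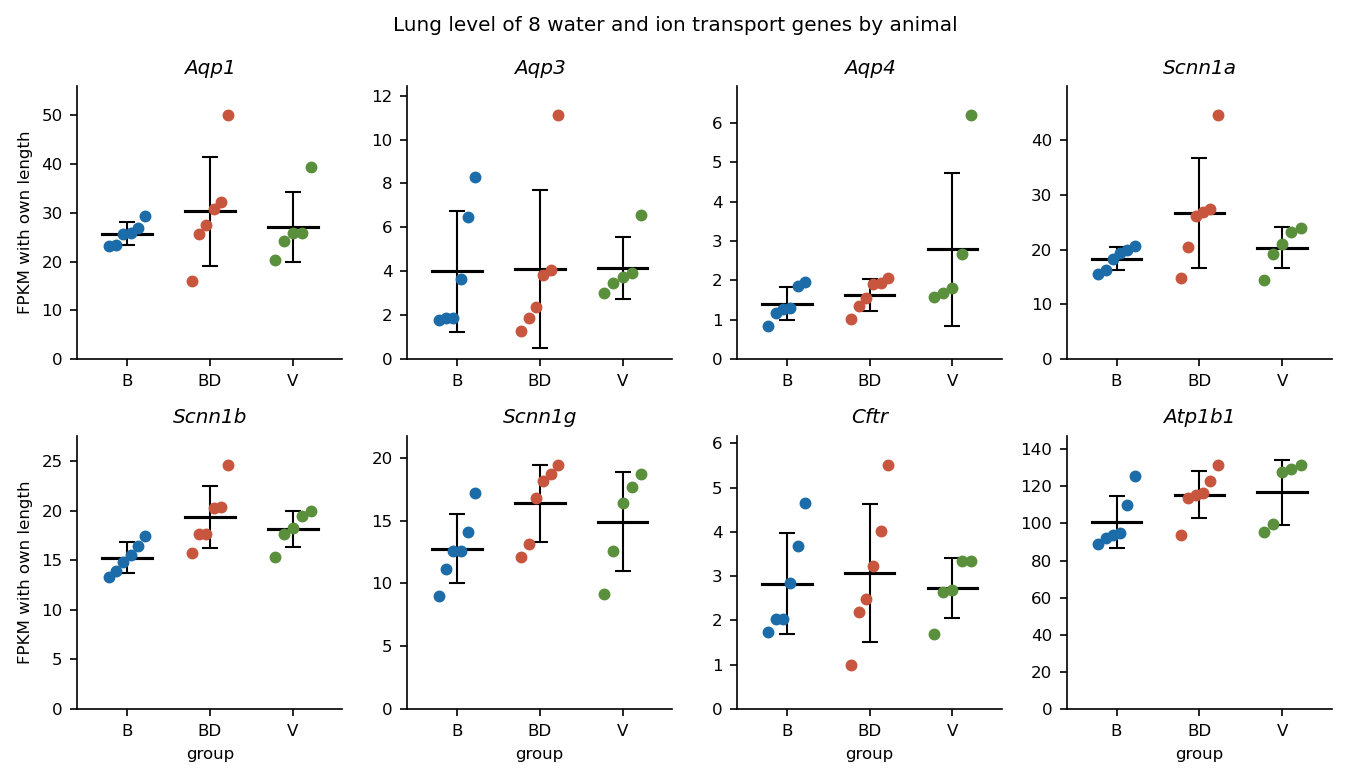
FPKM with own length for each of the 8 genes in bonded (B, n = 6), bond-disrupted (BD, n = 6) and virgin (V, n = 5) males, with a point per animal, a line at the group mean and bars of 1 SD. The groups overlap for every gene, and single animals stand high for Aqp1 and Scnn1a (BD2), Aqp3 (BD6) and Aqp4 (V2).

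Among the water channels, Aqp1 is the channel of lung capillary endothelium. In bonded animals it ran from 23.2 to 29.4 FPKM with a median of 25.7, and in bond-disrupted animals from 16.0 to 49.9 FPKM with a median of 29.1. The virgins had 25.8, 24.1, 20.3, 25.9 and 39.3 FPKM. The bond-disrupted group thus held both the highest animal (BD2) and the lowest (BD6) of all 17, and the bonded animals lay close together. The log2 fold change of bond-disrupted against bonded was 0.16 (95% confidence interval -0.26 to 0.58), and it was 0.0046 without BD2 and 0.32 without BD6, the ends of its range when each animal was left out.

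Aqp3 lets water and glycerol pass and is known from airway basal cells, and it was the most variable of the 8 genes. It ran from 1.80 to 8.28 FPKM in bonded animals (median 2.77) and from 1.29 to 11.1 FPKM in bond-disrupted animals (median 3.11). The virgins had 3.77, 3.47, 6.58, 3.94 and 3.02 FPKM. B2, B3, BD6 and V4 were the high animals, so that each group had at least 1. The SD of log2(FPKM + 1) within groups was 0.71, more than that of 97.0% of all genes tested, whose median was 0.21. The difference between bond-disrupted and bonded animals was near 0 (log2 fold change -0.031, interval -0.83 to 0.77).

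Aqp4, the aquaporin on the basolateral side of airway epithelium, was the lowest. It ran from 0.856 to 1.96 FPKM in bonded animals (median 1.29) and from 1.01 to 2.06 FPKM in bond-disrupted animals (median 1.74). The virgins had 6.19, 1.81, 1.69, 2.67 and 1.57 FPKM. V2 and V5 lay above all 12 bonded and bond-disrupted animals, and the other virgins lay among them. Aqp5, the apical channel of type 1 alveolar cells, is not one of the 8 genes and had a higher level, 137 ± 48.8 FPKM in bonded, 131 ± 57.8 in bond-disrupted and 118 ± 38.5 in virgin animals (SD, n = 6, 6 and 5). The log2 ratio of Aqp5 to Aqp1 was 2.33 ± 0.62, 2.07 ± 1.06 and 2.10 ± 0.38 in the same order. It fell to 0.094 in BD2, where Aqp1 was highest and Aqp5 lowest of all animals.

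Scnn1a, Scnn1b and Scnn1g encode the alpha, beta and gamma subunits that together form ENaC. Scnn1a, the subunit without which the channel carries little current, ran from 15.5 to 20.7 FPKM in bonded animals (median 18.9) and from 14.8 to 44.5 FPKM in bond-disrupted animals (median 26.5). The virgins had 23.9, 23.3, 14.5, 21.1 and 19.2 FPKM. In bond-disrupted animals 4 of 6 were above the highest bonded animal, 1 was just below it and BD6 was below the lowest. The BD6 value is 1 of the 4 whose dividing length deviated by more than 0.2, and shifted by that deviation it would be 17.6 FPKM, within the bonded range.

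Scnn1b ran from 13.3 to 17.5 FPKM in bonded animals (median 15.2) and from 15.7 to 24.6 FPKM in bond-disrupted animals (median 19.0). The virgins had 17.7, 20.0, 15.3, 19.5 and 18.2 FPKM. All bond-disrupted animals except BD4, and all virgins except V4, were above the highest bonded animal, B4. BD5 (17.6 FPKM), BD2 and V2 (17.7 FPKM each) were so by little. Shifted by the deviation of its dividing length, BD5 would be at 17.3 FPKM, below B4. With the same shift BD2 and V2 would be at 17.6 and 17.9 FPKM, above B4. With a within-group SD of 0.17 on the log2 scale, Scnn1b was the least variable of the 8 genes.

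Scnn1g ran from 9.04 to 17.2 FPKM in bonded animals (median 12.6) and from 12.1 to 19.4 FPKM in bond-disrupted animals (median 17.5). The virgins had 18.7, 12.6, 9.20, 16.4 and 17.7 FPKM, so that all groups overlapped widely. The 3 subunits were thus present at similar levels, and their balance varied between animals. The log2 ratio of Scnn1a to Scnn1b was 0.26 ± 0.061 in bonded, 0.40 ± 0.70 in bond-disrupted and 0.15 ± 0.19 in virgin animals (SD, n = 6, 6 and 5). The wide spread in bond-disrupted animals came with BD2 at 1.33 and BD6 at -0.73, the highest and the lowest of all 17. With the shifted Scnn1a value BD6 would be at -0.48. The ratio of Scnn1a to Scnn1g was 0.54 ± 0.37, 0.65 ± 0.58 and 0.48 ± 0.30, and that of Scnn1b to Scnn1g 0.28 ± 0.37, 0.25 ± 0.42 and 0.32 ± 0.37. These ratios are descriptions and were not tested between groups.

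**Figure D3:**
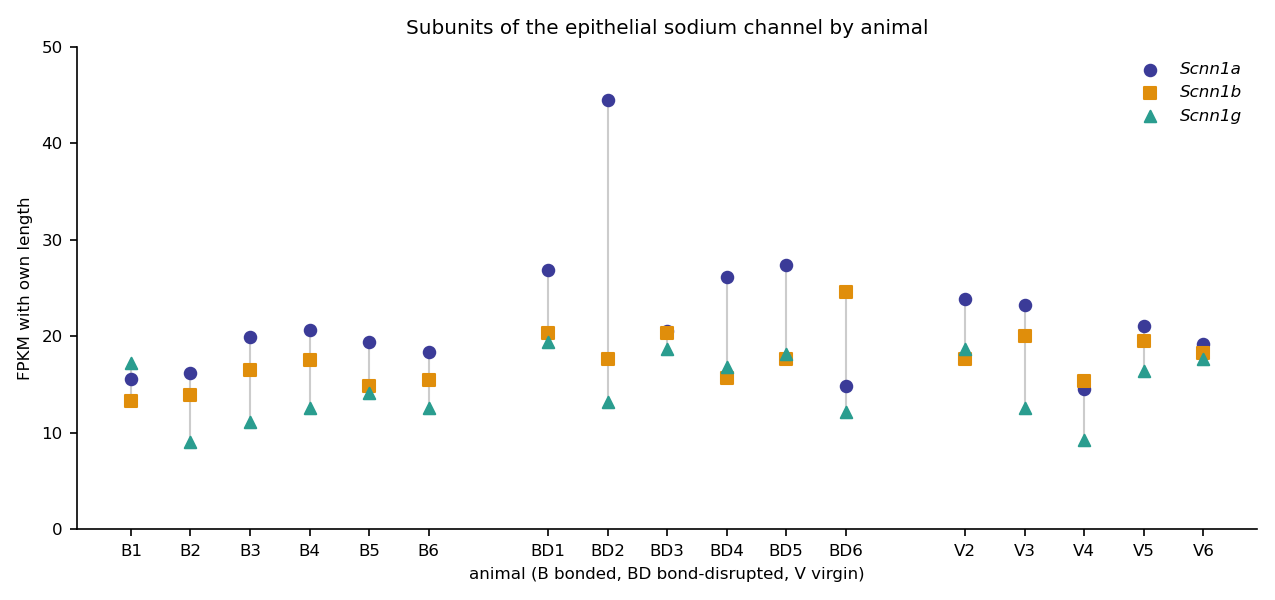
FPKM with own length of the 3 ENaC subunits in each of the 17 animals, joined by a line within an animal. Scnn1a is far above the other subunits in BD2 (44.5 FPKM), while BD6 has the highest Scnn1b (24.6 FPKM) above its Scnn1a (14.8 FPKM).

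Cftr, the chloride and bicarbonate channel mutated in cystic fibrosis, ran from 1.74 to 4.65 FPKM in bonded animals (median 2.44) and from 1.00 to 5.51 FPKM in bond-disrupted animals (median 2.86). The virgins had 2.64, 3.34, 1.68, 2.68 and 3.34 FPKM. BD2 was the lowest and BD6 the highest of all 17, the reverse of their places for Aqp1. The log2 ratio of Cftr to Scnn1a was -2.78 ± 0.61 in bonded, -3.22 ± 1.36 in bond-disrupted and -2.92 ± 0.26 in virgin animals.

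Atp1b1 encodes the beta subunit that brings the Na,K-ATPase to the basolateral membrane. It ran from 89.1 to 125 FPKM in bonded animals (median 94.6) and from 93.9 to 131 FPKM in bond-disrupted animals (median 116). The virgins had 95.4, 99.6, 129, 128 and 131 FPKM and fell into 2 low and 3 high animals.

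Between bond-disrupted and bonded animals, the ENaC subunits had the largest differences of the 8 genes, all toward bond-disrupted animals, and none passed the test. The log2 fold change was 0.45 for Scnn1a (95% confidence interval 0.050 to 0.85, a fold of 1.37), 0.32 for Scnn1b (0.11 to 0.53, a fold of 1.25) and 0.34 for Scnn1g (-0.026 to 0.71, a fold of 1.27). In limma, with adjustment over the 14772 genes tested, 0 of the 8 genes were called (adjusted p under 0.1 with a fold of 2 or more), and 0% of all genes were. The adjusted p was 0.805 for Scnn1a and Scnn1b and 0.846 for Scnn1g, and it was 0.805 to 0.994 over the 8 genes. At an unadjusted p under 0.05 in limma, 2 of the 8 genes were higher, Scnn1a and Scnn1b, against 2.86% of all genes tested that were higher by this rule, and 875 genes (5.92%) passed it in either direction. The median log2 fold change was 0.18 over the 8 genes and 0.0059 over all genes tested, with 7 of 8 and 52.0% above 0. The value for Scnn1a was 0.29 without BD2 and 0.60 without BD6. For virgin against bonded animals the median was 0.19 over the 8 genes with 7 of 8 above 0, against 0.0060 and 52.1% over all genes tested. Because whole lung was sequenced, a lower share of a cell type and less RNA per cell cannot be told apart in any of these comparisons.

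Each bonded animal has a sibling in the bond-disrupted group, which gives 6 pairs. Atp1b1 was higher in the bond-disrupted sibling in 6 of 6 pairs. Aqp1, Scnn1a, Scnn1b and Scnn1g were so in 5 of 6, the exception being the pair of BD4 for Scnn1b and that of BD6 for the others. Aqp4 was higher in 4 pairs, and Aqp3 and Cftr in 3 each. Of all genes tested, 14.1% were higher in the bond-disrupted sibling in at least 5 pairs. With the family number as a replicate block, limma gave an adjusted p of 0.855 for Scnn1a, Scnn1b, Scnn1g and Atp1b1.

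Between virgin and bonded animals, Aqp4 had the largest difference, with a log2 fold change of 0.55 (0.085 to 1.02), followed by Scnn1b at 0.24 (0.016 to 0.46) and Atp1b1 at 0.20 (-0.037 to 0.45). None of the 8 genes was called (limma, adjusted p = 1 for each), and 0% of all genes were. Aqp4 and Scnn1b were higher at an unadjusted p under 0.05 in limma, as were 2.09% of all genes tested, and 522 genes (3.53%) passed in either direction. The value for Aqp4 was 0.29 without V2 and 0.66 without V6. The differences of the other genes lay between -0.0065 for Cftr and 0.19 for Scnn1g, which ran from 0.10 without V2 to 0.34 without V4.

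Between virgin and bond-disrupted animals, the log2 fold change was 0.42 for Aqp4 (-0.051 to 0.88), with 0.15 without V2 and 0.53 without V6. For Scnn1a it was -0.32 (-0.74 to 0.10), with -0.16 without BD2 and -0.47 without BD6. The median over the 8 genes was -0.066 with 3 of 8 above 0, against 0.0044 and 51.6% over all genes tested. None of the 8 genes was called (limma, adjusted p of 0.945 to 0.999), 0% of all genes were, and none had an unadjusted p under 0.05, which 625 genes (4.23%) had. Atp1b1 differed least (0.0081, interval -0.23 to 0.25). Over the 3 comparisons, the groups overlapped for all 8 genes, while they did not overlap for 0.264%, 0.474% and 0.278% of all genes tested. The intervals show what the spread between animals allows. For Scnn1b and Atp1b1 all intervals stayed within 0.53 of 0, whereas they reached 1.06 for Aqp3 and 1.02 for Aqp4. These values are on the scale of log2(FPKM + 1), which can make changes of low genes smaller than they are. With a pseudocount of 0.1 in place of 1, Aqp4 had 0.78 for virgin against bonded animals, and with 0.01 it had 0.82. The Cftr values, all near 0, instead shrank, as from 0.044 to 0.030 and 0.026 for bond-disrupted against bonded animals. On the deposited values, 0 of the 8 genes were called as well, beside 0.215%, 0.607% and 0.188% of 18602 genes.

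**Figure D4:**
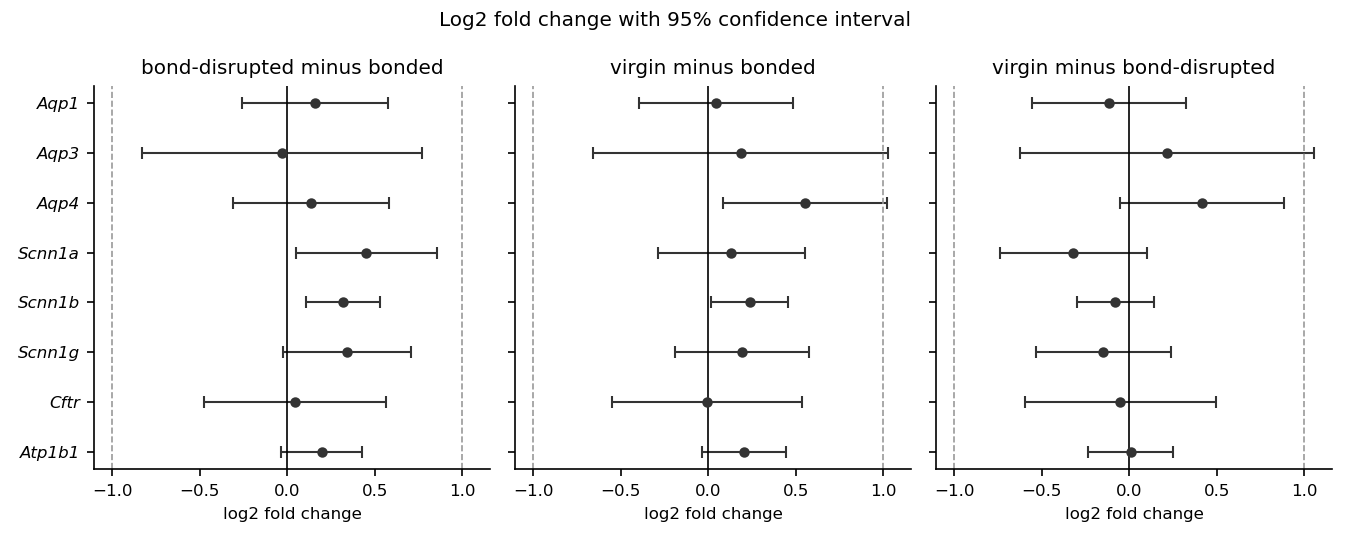
Log2 fold change of the 8 genes in the 3 comparisons (points) with the 95% confidence interval from limma (bars), where dashed lines mark -1 and 1 on the scale of log2(FPKM + 1). Intervals are narrowest for Scnn1b and Atp1b1 and widest for Aqp3, and those of Scnn1a and Scnn1b (bond-disrupted) and of Aqp4 and Scnn1b (virgin) against bonded animals exclude 0 before adjustment.

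Of 67 further genes of water and ion transport, 60 were in the table and 48 were tested, and none of these was called in any comparison with own lengths. Their median log2 fold change was -6.82e-05 for bond-disrupted against bonded, 0.033 for virgin against bonded and 0.064 for virgin against bond-disrupted animals. At an unadjusted p under 0.05, 1 gene was higher in bond-disrupted than in bonded animals, Clcn3 (log2 fold change 0.20), 2 were higher in virgin than in bonded animals, Ano1 (0.54) and Nedd4l (0.15), and 0 were lower. These are 1 and 2 of 48, beside 2.86% and 2.09% of all genes tested that were higher by this rule, so that the first lies under the share of all genes. Clcn3 is a chloride and proton exchanger of endosomes, Ano1 a chloride channel opened by calcium, and Nedd4l the ligase that removes ENaC from the membrane. The widest values were those of Clca1, a secreted protein of mucous cells, at -1.81 and -1.99 against bonded animals. It ran from 0.201 to 173 FPKM in bonded animals with a median of 1.40 and a mean of 33.8, and stayed at or under 2.25 FPKM in the other groups. Fxyd2, the gamma subunit of the pump, had 0.34 and 0.47 in the same comparisons. In virgin against bond-disrupted animals the values were -0.44 for Slc26a4, an anion exchanger, and 0.31 for Slc12a7, a potassium and chloride cotransporter.

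The partners of the 8 genes given here were expressed and did not pass the test. For bond-disrupted against bonded animals the log2 fold change was 0.19 for Sgk1 and 0.14 for Prss8, a protease that activates ENaC. Slc12a2, which loads epithelial cells with chloride, had 0.0021, Fxyd5, a regulator of the pump, 0.046, and Aqp5 -0.096. Nedd4l was the steadiest of these, with 11.1 ± 0.836 FPKM (SD) over the 17 animals.

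Within groups, some of the 8 genes varied together between animals. Deviations of log2(FPKM + 1) from the group means were correlated over the 17 animals for the 28 pairs of genes, and 2 pairs passed at an adjusted p under 0.05. The permutations shuffled all 17 deviations freely although group means had been subtracted, and they took no account of siblings. Their p-values, here and for the marker lists below, tend to be too small, and those near the threshold are uncertain. Aqp1 and Aqp3 were opposed (r = -0.745, permutation p = 0.00032, adjusted p = 0.00896, and rho = -0.725, permutation p = 0.00166, adjusted p = 0.0465). Without BD2 and BD6, the animals farthest from the median of Aqp1, r was -0.505, and it was negative within each group (-0.776 in bonded, -0.895 in bond-disrupted and -0.781 in virgin animals). Aqp1 and Scnn1a rose and fell together (r = 0.775, permutation p = 0.00129, adjusted p = 0.0181), with rho = 0.390 (permutation p = 0.123, adjusted p = 0.448). Without BD2 and BD6 that r was 0.297, so the relation of Aqp1 and Scnn1a rests on these animals. The ENaC subunits themselves were not among the pairs that passed, with r from -0.19 to 0.21. For Scnn1a and Scnn1b r was -0.187 over all animals and 0.483 without BD2 and BD6. It was 0.932 in bonded, -0.707 in bond-disrupted and 0.804 in virgin animals, given as a description of 6, 6 and 5 animals. With the family number as a replicate block 6 pairs passed, and without BD6 none did.

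Part of this variation went with markers of cell types. In a step added after the values were seen, the same deviations were set against those of 8 marker lists, and 13 of the 64 relations passed by r and 3 of them by rho as well. Without BD2 only 5 passed, and without BD6 also 5. Aqp3 went with the leukocyte list (r = 0.776, permutation p = 0.00035, adjusted p = 0.00656, rho = 0.858, permutation p = 7e-05, adjusted p = 0.00448), and without BD2 and V6 r was 0.790. Of the 4 leukocyte markers 3 were measured, and their sum ran from 77.9 to 212 FPKM in bonded, 29.5 to 254 in bond-disrupted and 71.5 to 188 in virgin animals. It was lowest in BD2, where Aqp3 was lowest, and highest in BD6, where Aqp3 was highest. Aqp3 was opposed to the endothelial list (r = -0.787, permutation p = 0.0002, adjusted p = 0.00656, rho = -0.767, permutation p = 0.00069, adjusted p = 0.0203), and r was -0.651 without BD6 and BD2. Of 5 basal cell markers 2 were measured, of which Tp63 was under 0.5 FPKM in all libraries and Ngfr ran from 0.409 to 4.76 FPKM.

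Scnn1b went with the type 2 alveolar list (r = 0.752, permutation p = 0.00041, adjusted p = 0.00656, rho = 0.743, permutation p = 0.00095, adjusted p = 0.0203), with r of 0.588 without BD6 and V4. Of 6 type 2 markers 4 were measured, and their sum ran from 14757 to 25009 FPKM in bonded, 15032 to 32148 in bond-disrupted and 17837 to 30352 in virgin animals. The mean of their log2 levels was 9.71 ± 0.21 in bonded, 9.98 ± 0.34 in bond-disrupted and 9.96 ± 0.27 in virgin animals. For the type 1 list, with 5 of 5 markers measured, it was 7.90 ± 0.31, 8.07 ± 0.29 and 8.03 ± 0.25, in the same order of groups. The part of these cells in the values of Scnn1b was not tested. Cftr also went with the type 2 list (r = 0.714, permutation p = 0.00128, adjusted p = 0.0104, rho = 0.647, permutation p = 0.00606, adjusted p = 0.0582), and r was 0.585 without BD6 and V4.

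Aqp1 and Scnn1a went with the endothelial list, of which 3 of 4 markers were measured, with sums of 390 to 502 FPKM in bonded, 333 to 570 in bond-disrupted and 394 to 546 in virgin animals. For Aqp1 r was 0.696 (permutation p = 0.0013, adjusted p = 0.0104, rho = 0.632, permutation p = 0.00819, adjusted p = 0.0582), and without BD6 and BD2 it was 0.391. For Scnn1a r was 0.721 (permutation p = 0.00063, adjusted p = 0.00672, rho = 0.603, permutation p = 0.0112, adjusted p = 0.0717), and without BD6 and BD2 it was 0.447. The sum was highest in BD2 and lowest in BD6. Scnn1g went with the type 1 alveolar list (r = 0.622, permutation p = 0.00848, adjusted p = 0.0417, rho = 0.632, permutation p = 0.00777, adjusted p = 0.0582, and r = 0.696 without B6 and BD2), and Atp1b1 with the ciliated list (r = 0.672, permutation p = 0.00324, adjusted p = 0.023, rho = 0.556, permutation p = 0.0232, adjusted p = 0.114, and r = 0.522 without B6 and V4). The other relations that passed by r were those of Aqp1 with the leukocyte (-0.751) and smooth muscle (0.673) lists, Aqp3 with smooth muscle (-0.646), Cftr with smooth muscle (-0.769) and Atp1b1 with type 1 cells (-0.661). Of 3 smooth muscle markers 2 were measured, and their sum ran from 225 to 537 FPKM in bonded, 131 to 419 in bond-disrupted and 228 to 382 in virgin animals. The mean of their log2 levels was 6.81 ± 0.50, 6.28 ± 0.57 and 6.61 ± 0.33, the widest step between bonded and bond-disrupted animals among the 8 lists. No relation of Aqp4 passed. The part of these cell types in the differences between groups was not tested.

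**Figure D5:**
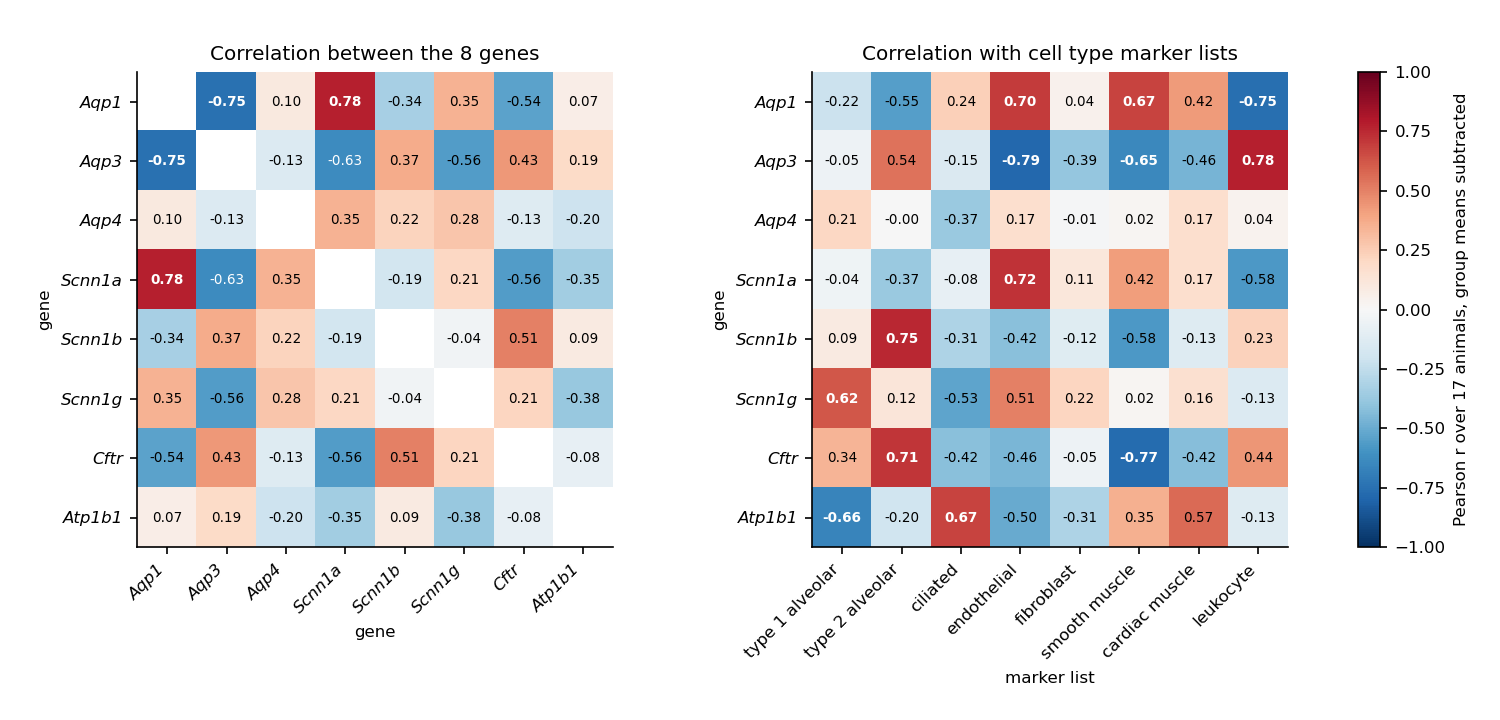
Pearson r over the 17 animals, with group means subtracted, between the 8 genes (left) and between each gene and the mean log2 level of 8 marker lists (right), with values in bold where the adjusted permutation p is under 0.05. Aqp1 and Scnn1a share a positive r with the endothelial list (0.70 and 0.72), and Scnn1b and Cftr with the type 2 list (0.75 and 0.71).

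The genes whose levels followed each of the 8 most closely, among 9268 genes with a mean of at least 5 FPKM and over the same 17 deviations, are given as a description. They were Mindy4, Acvrl1 and Phldb1 for Aqp1 (r = 0.923, 0.894 and 0.879), Laptm5, Il17ra and Gramd1a for Aqp3 (0.898, 0.869 and 0.869), and Atf7, Hook3 and Pigc for Aqp4 (0.727, 0.724 and 0.712). Acvrl1 is a receptor of endothelial cells and Laptm5 a lysosomal protein of leukocytes. For the ENaC subunits they were Kank3, Dock6 and Sh2d3c for Scnn1a (0.905, 0.894 and 0.892), Ceacam19, Vac14 and Lamp1 for Scnn1b (0.863, 0.798 and 0.784), and Emp2, Wnt2 and Tspan9 for Scnn1g (0.911, 0.897 and 0.886). For Cftr they were Sema4g, Gspt1 and Vps35 (0.880, 0.853 and 0.848), and for Atp1b1 Ubtd1, LOC128100691 and Elf3 (0.867, 0.826 and 0.825). No gene was shared between these lists, but with 3 of 9268 genes in each list this says little about shared variation.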

How the data were processed

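Lung RNA of 17 animals was measured with strand-specific libraries from total RNA. The authors deposited FPKM, 1 column per animal and 0 columns left over. The submitters' processing notes name FastQC, Trim Galore 0.4.5, STAR 2.7.2, SAMtools 1.5 and featureCounts of Subread 1.5.3. The genome build and annotation are not given in the sources used here. Gene symbols were matched to RefSeq assembly ASM782708v3, whose coordinates are not used.

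Lengths were searched from 20 to 150000 bases, and known lengths of small RNAs gave the depths. Of 20522 protein-coding lengths, 99.7% fitted within the span of the gene in RefSeq, and 1465 of 1476 small RNA lengths equalled the span. All 17 values were recovered for 24772 genes, and the others were left out. Own-length FPKM were taken as log2(FPKM + 1), a scale that can understate changes of low genes. The 14772 genes with at least 1 FPKM in an animal were compared with limma 3.58.1 in R 4.3.3, 3 groups in 1 fit, two-sided, with Benjamini-Hochberg adjustment. Two-sided correlation tests used 100000 permutations in Python 3.11.15 (numpy 2.4.6, scipy 1.17.1, pandas 2.3.3, numba 0.67.0, matplotlib 3.10.9). The length and limma steps were tested on simulated data.

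Genes named beside the 8 are markers of the cell type lists, the partners, the 3 genes with the highest r and genes of the transport list. The latter are those with the 3 widest log2 fold changes per comparison, an unadjusted p under 0.05, or an adjusted p under 0.1 in an alternative. Some genes that this rule names are not reported here. Those with an unadjusted p under 0.05 were named after their values were seen. Members and lists were chosen with earlier results of these data known. Of 16 pairs of relatives, named as such in the paper, 7 had deviations over 13508 genes that correlated above 0.1 (mean r 0.069). They were 5 of the 6 bonded and bond-disrupted siblings (mean r 0.25, lowest 0.044) and 2 of the 10 pairs with a virgin. Not every pair was above 0.1, so the family number served as a block in an alternative only. The main fit thus treated siblings as independent. Other alternatives were the deposited values, a fit without lengths, pseudocounts of 0.1 and 0.01, other filters, scalings, variance models and thresholds, and each animal left out. No sequencing batch is given in the labels.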

Additional observations from a re-analysis of the deposited data

Results flagged for a closer look

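In 42 groups of 5 or 6 animals (8 genes and 6 ratios in 3 groups each), 5 had an animal apart from the rest by Dixon's rule at the 95% level, where chance flags about 1 in 20. Aqp3 was high in BD6 (11.1 FPKM, next 4.08) and in V4 (6.58 FPKM, next 3.94). Aqp4 was high in V2 (6.19 FPKM, next 2.67). The log2 ratio of Scnn1a to Scnn1b was high in B5 (0.38, next 0.28), in a bonded group with a narrow range, and that of Scnn1a to Scnn1g was high in BD2 (1.76, next 0.64).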

How the results depend on the processing

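No alternative called any of the 8 genes in any comparison (0 under each of 31 settings, the 17 that leave out an animal included). The stricter threshold could not have added a call. Of the further transport genes 1 was called, Slc4a4 for virgin against bonded on the deposited values (log2 fold change 2.41, limma adjusted p = 0.0545, against 0.10 and adjusted p = 1 with own lengths). By the fit without lengths Fxyd6 had an adjusted p of 0.0641 in limma there, with a log2 fold change of 0.77 that is under the fold of 2. Both were named after their values were seen. The 24 log2 fold changes of the 8 genes changed sign in 46 of 744 cases, all between values that were not called. Of the 24, 16 kept their sign in all settings other than the deposited values. Many settings cannot move a fold change, such as other filters and thresholds or the omission of an animal from the group not compared. These counts therefore make the signs look steadier than they are. The deposited values turned the sign for Aqp1 (-1.84, -1.17 and 0.67 for bond-disrupted against bonded, virgin against bonded and virgin against bond-disrupted), Cftr (-0.72, 0.43 and 1.15), Aqp3 (-2.53 and -0.34 for virgin against bonded and bond-disrupted), Scnn1a, Scnn1b and Scnn1g (-0.21, -0.49 and -0.41 for virgin against bonded) and Atp1b1 (-0.10 for virgin against bond-disrupted). Here each value carries the length of another gene. Near 0, the sign also turned for Aqp3, bond-disrupted against bonded (0.0054 by quantile normalization), for Cftr, bond-disrupted against bonded (-0.11 by voom), virgin against bonded (0.14 by the fit without lengths, 0.00079 and 0.0021 with pseudocounts of 0.1 and 0.01, 0.0013 by quantile normalization, 0.014 with the replicate block) and virgin against bond-disrupted (0.0041 by voom), and for Atp1b1, virgin against bond-disrupted (-0.046 by the fit without lengths, -0.011 by a median-ratio factor). The cause was not tested.

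With each animal left out in turn, the values that turned ran from -0.095 to 0.13 (Aqp1, virgin against bonded), -0.28 to 0.039 (Aqp1, virgin against bond-disrupted), -0.33 to 0.18 (Aqp3, bond-disrupted against bonded), -0.24 to 0.0020 (Scnn1g, virgin against bond-disrupted), -0.11 to 0.23, -0.093 to 0.12 and -0.24 to 0.10 (Cftr, in the order above) and -0.050 to 0.077 (Atp1b1, virgin against bond-disrupted). Others moved by over 1.5 times without turning, from 0.036 to 0.40 (Aqp3) and 0.073 to 0.24 (Scnn1a) for virgin against bonded, 0.031 to 0.51 (Aqp3) and -0.14 to -0.013 (Scnn1b) for virgin against bond-disrupted, and 0.065 to 0.21 (Aqp4) for bond-disrupted against bonded. Of the 28 pairs of genes, 2 passed, against 0 on the deposited values, 6 with the replicate block and 0 (without BD6) to 4 (without V4) with an animal left out. Aqp1 and Scnn1a had r = -0.302 as deposited. The 13 of 64 relations with marker lists became 15 with the replicate block and 5 (without BD2 or BD6) to 18 (without V4) with an animal left out, alternatives chosen after seeing the data. The block changed none of the calls of the 8 genes or of the further transport genes. Over all genes, 0 were called in each comparison with own lengths and 0 by voom on the recovered reads, against 40, 113 and 35 of 18602 on the deposited values, 0, 5 and 1 of 15681 by the fit without lengths, and 1 gene in each comparison with bonded animals when B4 was left out. Depth limits Aqp3, Aqp4 and Cftr most, whose fewest reads were 108, 147 and 284.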

Other observations

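The other transport genes were also counted by class, where 52.0%, 52.1% and 51.6% of all genes tested were above 0 for bond-disrupted against bonded, virgin against bonded and virgin against bond-disrupted animals. Of 15 regulators of ENaC, 8, 10 and 10 had a log2 fold change above 0 in this order (median 0.047, 0.10 and 0.034). Of 18 genes of chloride and bicarbonate transport, 9, 10 and 13 were above 0 (median -0.018, 0.026 and 0.081). Of 3 potassium channels, 1, 0 and 1 were above 0 (median -0.075, -0.048 and -0.17). Of 2 aquaporins, 0, 1 and 1 were above 0. The other 10 genes tested are not given by class here. No gene of the classes given was called with own lengths. Fxyd2 varied widely within groups, from 0.582 to 7.18 FPKM in bonded, 0.914 to 15.9 in bond-disrupted and 1.63 to 7.51 in virgin animals.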
